A study of Mus musculus with 18 samples.

Results

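The hypothalamus of mice with a mutated sumoylation site in the thyroid hormone receptor beta (THRB) was compared with the hypothalamus of WT mice, gene by gene. All genes with a normalized value of at least 0.5 CPM, a read count scaled to the size of its library, in at least 3 of the 6 hypothalamus libraries were included, 15761 of the 24054 genes in the table. RNA-Seq of total RNA was made from hypothalamus, pituitary and thyroid, with 3 mice per genotype and tissue and 18 libraries in all. The WT group was C57BL/Ntac mice at 3 months of age with no treatment, here mice 1, 2 and 43. The K146Q group was mice of the same strain and age, also untreated, here mice 60, 62 and 83, which carry glutamine in place of the lysine of THRB named in K146Q. The K146Q mice were homozygous for a whole-body knockin that alters every receptor isoform made from Thrb, so each cell that expresses the gene carries the mutation, from development onward and in every tissue of the axis. The study used male mice, and in all 6 libraries Xist was at no more than 1.001 CPM and Ddx3y between 50.4 and 62.2 CPM.

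SUMO is a small protein that is attached to lysines of other proteins, and sumoylation of THRB changes which partners the receptor binds. In the feedback loop of the thyroid axis, neurons of the paraventricular nucleus of the hypothalamus release thyrotropin-releasing hormone (TRH), which drives thyroid-stimulating hormone (TSH) in the pituitary. Thyroid hormone from the thyroid gland then represses both Trh and the TSH genes through its receptors. The comparison addresses whether the mutation changes the hypothalamic arm of this loop.

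The mutated codon is shown because it defines the K146Q group. In the reference genome (GRCm38, GENCODE M21) Thrb lies on chromosome 14 from 17660261 to 18038090, plus strand, and the mutated codon of its 461-codon form occupies chr14:18008620-18008622 in a coding exon, exon 6 of transcript ENSMUST00000022303.14. The 63 coding bases around it are given 5′ to 3′, with the codon for that lysine in capitals.
Thrb K146Q codon and flanks: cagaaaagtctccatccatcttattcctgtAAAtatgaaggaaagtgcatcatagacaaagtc
The exchange of the first base of the codon is A436C, counted from 1 at the first coding base of this transcript. The same codon is number 160 of the 475-codon form, in which the exchange is A478C. The study describes the codon as AAG where this reference holds AAA, and the mutant codon was not read here. Gene-level values cannot show the exchange, so the genotype rests on the labels.

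Depth in hypothalamus ran from 15395363 to 15865500 reads per library in WT mice (median 15457481), and from 14902330 to 18419977 in K146Q mice (median 17041227). At these depths 3 reads correspond to 0.150 to 0.181 CPM. The lowest gene included had a third-highest value of 0.5003 CPM and the highest gene left out one of 0.4841 CPM. On the log2(CPM + 0.5) scale, on which all fold changes are given, the median 95% interval reached 0.184 to either side of the estimate, and for 81% of genes the whole interval lay within 0.5 of no difference.

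The libraries did not separate by genotype. The first principal component held 33.7% of the variance over 14756 genes and placed WT mouse 2 at 6.34, K146Q mouse 60 at 11.1 and K146Q mouse 62 at 14.9, against -7.28, -13.2 and -11.9 for WT mice 1 and 43 and K146Q mouse 83. The same 3 libraries on the positive side carried choroid plexus RNA. Ttr, the carrier of thyroxine that choroid plexus epithelium secretes, had 21.4, 1098 and 23.5 CPM in WT (mice 1, 2 and 43) against 1006, 1029 and 21.7 CPM in K146Q (mice 60, 62 and 83). Summed over 10 choroid plexus markers, of which Ttr was the most abundant, the levels were 59.3, 1265 and 66.0 CPM in WT and 1150, 1191 and 63.9 CPM in K146Q mice, so that 1 WT and 2 K146Q libraries were high.

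Markers of other neighbouring tissue also set single libraries apart. K146Q mouse 83 had 257.7 CPM summed over 8 striatum markers, against 124.4 to 138.6 CPM in the other 5 libraries, with the adenosine receptor gene Adora2a at 13.2 CPM against 1.37 to 2.15 CPM. K146Q mouse 62 had 1429 CPM over 8 markers of cortex and hippocampus against 779.7 to 973.0 CPM elsewhere, with the transcription factor gene Neurod6 at 13.2 CPM against 0.812 to 2.45 CPM. Thalamus markers (8), of which Slc17a6 was the most abundant, summed to 1046 to 1311 CPM over the 6 libraries. Whether this RNA came from thalamus or from hypothalamus cannot be told from the sums. Hemoglobin and other blood markers (5) ran from 115.6 CPM in WT mouse 2 to 344.0 CPM in WT mouse 43. Pituitary hormone genes were detected in all 6, with Gh at 82.0 to 112.7 CPM and 108.5 to 160.6 CPM summed over 10 markers. Pou1f1, the transcription factor that defines the Gh cells, was at 0.200 CPM or less. Defining markers of the hypothalamus were present throughout: Pmch, Hcrt, Oxt and Avp ranged from 53.7 to 253.7 CPM. In such whole-tissue RNA, fewer cells of a type and less RNA per cell cannot be told apart.

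**Figure D1:**
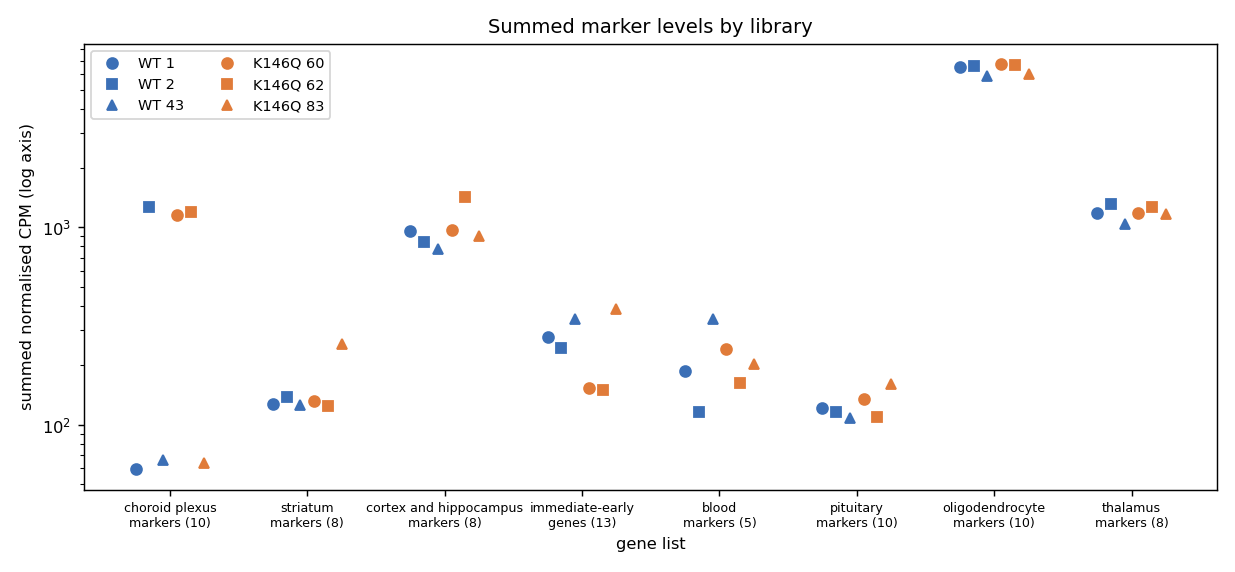
Summed normalised CPM (log axis) of the genes of 8 lists, named on the horizontal axis with the number of genes listed, in each of the 6 hypothalamus libraries (blue, WT; orange, K146Q; the shape gives the mouse). Choroid plexus markers reached 1265 CPM in WT mouse 2, 1150 in K146Q mouse 60 and 1191 in K146Q mouse 62, against 59.3 to 66.0 in the other 3 libraries, and K146Q mouse 83 stood alone in striatum markers with 257.7.

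No gene of the 15761 passed an adjusted p of 0.05 between genotypes (limma with Benjamini-Hochberg adjustment, 0% called; edgeR on recovered reads also called 0). With an unadjusted p under 0.05, limma counted 645 genes (4.09%), 377 higher in K146Q (2.39%) and 268 lower (1.7%), and edgeR 650 (4.12%). DESeq2 on the same reads called 9 genes (0.0571%), with Kcnh3, Chrm1 and Fam212b higher and Srp54a, Srp54b, Fam177a, 1700047I17Rik2, A330076C08Rik and Plac9b lower, and counted 340 at an unadjusted p under 0.05 (2.16%). Without K146Q mouse 62 limma counted 348 genes at an unadjusted p under 0.05, and without K146Q mouse 83 it counted 1081. Limma called 6 genes without K146Q mouse 83 (Fos, Egr1, Dbp, Srp54b, A330023F24Rik and Gvin1) and 1 gene, Hbb-bs, without WT mouse 43. The median log2 fold change over all genes was -0.00108, 188 genes differed by at least 0.5 and 28 by at least 1. The groups did not overlap in 1442 genes (9.15%), 662 higher in K146Q (4.2%) and 780 lower (4.95%).

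None of the genes for hypophysiotropic hormones, the signals that hypothalamic neurons send to the pituitary or release from it, passed the test. Trh itself, on chromosome 6 from 92242061 to 92244650, had 45.3, 46.0 and 56.2 CPM in WT mice 1, 2 and 43 and 47.6, 39.8 and 51.0 CPM in K146Q mice 60, 62 and 83. The lowest library was K146Q and the highest WT, while the other 2 K146Q libraries lay above the other 2 WT libraries. The log2 fold change was -0.09 (95% interval -0.32 to 0.14, limma adjusted p = 0.998), and its sign turned without WT mouse 43 (0.00757) or without K146Q mouse 62 (0.0102). The libraries hold RNA of the dissected hypothalamus, so Trh of the paraventricular nucleus was not measured apart from Trh of any other cells. Oxt, the oxytocin precursor, had 83.8, 97.5 and 119.1 CPM in WT and 86.1, 67.0 and 94.2 CPM in K146Q mice, with overlapping groups and a log2 fold change of -0.28 (95% interval -0.58 to 0.02), which was -0.14 without K146Q mouse 62 and -0.15 without WT mouse 43. Of the 8 precursor and enzyme genes listed (Trh, Crh, Sst, Ghrh, Gnrh1, Th, Avp and Oxt), none had an unadjusted p under 0.05, 7 lay below 0, and the median was -0.13 beside -0.00108 for all genes. Without WT mouse 43 it was 0.01.

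On the scale of CPM per kilobase of exon, on which levels of different genes can be set side by side, Trh stood seventh of 40 genes of the hormone and neuropeptide lists, which also hold Th and the growth factor gene Bdnf. Pmch was highest at 282.1, followed by Avp (182.7), Oxt (170.0), Sst (103.0), Hcrt (90.8), Cck (56.6), Trh (34.4), Penk (34.0), Cartpt (31.9) and Gal (23.5). The order of the first 6 was the same in WT and K146Q means. Penk stood ninth in WT and seventh in K146Q means, with Trh and Cartpt each 1 rank lower in K146Q. The Penk value was set apart in mouse 83, with 94.0 CPM against 45.2 to 49.9 CPM in the other 5 libraries.

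Receptors for TRH in the hypothalamus itself were low. Trhr had 8.35, 8.21 and 8.24 CPM in WT and 7.73, 6.50 and 8.28 CPM in K146Q mice. Trhr2, with 34 to 69 reads per library, ran from 1.97 to 3.12 CPM in WT and from 2.64 to 3.45 CPM in K146Q mice. Both overlapped between genotypes. Processing of the TRH precursor needs the prohormone convertases Pcsk1 and Pcsk2, carboxypeptidase E (Cpe), glutaminyl cyclase (Qpct) and the amidating enzyme Pam, and Trhde, Prep and Pgpep1 encode peptidases that can degrade TRH. Pcsk2 had 313.5, 335.1 and 332.0 CPM in WT and 314.3, 326.8 and 326.8 CPM in K146Q mice, a spread of a few percent with the groups interleaved. Pgpep1 was the gene of this list farthest from 0, with 14.1, 13.9 and 15.7 CPM in WT and 15.5, 16.2 and 18.2 CPM in K146Q mice. None of the 9 listed genes had an unadjusted p under 0.05, and their median was 0.02.

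**Figure D2:**
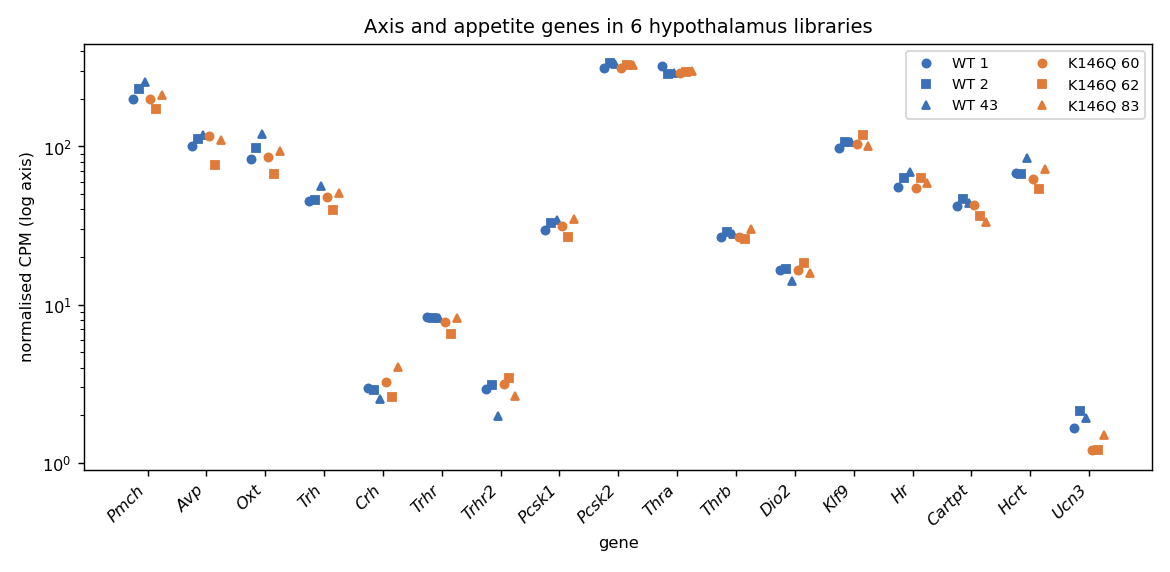
Normalised CPM (log axis) of genes of the thyroid axis and of appetite circuits in each hypothalamus library (blue, WT; orange, K146Q; the shape gives the mouse). The genotypes are interleaved for all but Ucn3, where the K146Q values of 1.201 to 1.51 lie below the WT values of 1.67 to 2.14.

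Thrb, the mutated gene, overlapped between genotypes. It had 27.0, 28.8 and 28.1 CPM in WT and 26.7, 26.1 and 29.96 CPM in K146Q mice, the K146Q values lying on both sides of the WT range. The log2 fold change was -0.02 (95% interval -0.17 to 0.13, limma adjusted p = 0.998), and it came out at 0.000797, 0.00196 and 0.0171 without WT mouse 2, K146Q mouse 60 and K146Q mouse 62. Thra, the gene of the other thyroid hormone receptor, stood well above Thrb per kilobase, at 64.7 against 3.75, and had 322.6, 288.3 and 293.0 CPM in WT and 292.0, 297.1 and 298.5 CPM in K146Q mice. Its log2 fold change was -0.02 (95% interval -0.13 to 0.08), and 0.03 without WT mouse 1, the highest library. None of the 9 genes listed as neighbours of Thrb on chromosome 14 had an unadjusted p under 0.05 (median 0.08).

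Receptor partners and coregulators stayed close to 0 as well. Among the 16 receptor and coregulator genes (both receptors, the retinoid X receptors, Ncor1 and other corepressor subunits, and the coactivators) 1 had an unadjusted p under 0.05, lower in K146Q, beside 1.7% of all genes. This was Hdac3, the histone deacetylase of the nuclear receptor corepressor complex, with 89.7, 88.1 and 85.3 CPM in WT and 80.8, 82.8 and 81.7 CPM in K146Q mice. The groups did not overlap, and the log2 fold change was -0.10 (95% interval -0.19 to -0.01, limma adjusted p = 0.998). Ncor1, the nuclear receptor corepressor, overlapped with 188.2 to 213.3 CPM in WT and 199.0 to 223.5 CPM in K146Q mice. Tbl1xr1, which encodes another subunit of that complex, and the coactivator gene Ncoa3 lay the other way without overlap (9.15% of all genes did not overlap), with 53.7 to 56.98 CPM in WT and 57.5 to 61.0 CPM in K146Q mice for Tbl1xr1 and 62.7 to 64.3 against 64.5 to 69.7 CPM for Ncoa3. The median of the list was -0.02.

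In the SUMO pathway, which has SUMO modifiers, an activating enzyme of the subunits Sae1 and Uba2, the Pias ligases and the Senp proteases that remove SUMO, 1 of 16 genes had an unadjusted p under 0.05, beside 4.09% of all genes. Sumo2 had 87.5, 91.5 and 96.5 CPM in WT and 100.3, 102.1 and 97.7 CPM in K146Q mice, all above the WT values, with a log2 fold change of 0.12 (95% interval 0.02 to 0.23, limma adjusted p = 0.998). Senp3, a SUMO protease gene, did not overlap either, with 57.04 to 57.7 CPM in WT and 58.4 to 59.7 CPM in K146Q mice. The median of the 16 was 0.004.

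Genes that bring thyroid hormone into the brain or act on it overlapped between genotypes in all 10 cases tested. Dio2, which converts T4 to T3 in tanycytes and astrocytes, had 16.5, 16.8 and 14.04 CPM in WT and 16.7, 18.3 and 15.8 CPM in K146Q mice, overlapping and with a log2 fold change of 0.10 (95% interval -0.11 to 0.30), which was 0.02 without WT mouse 43 and 0.04 without K146Q mouse 62. Slco1c1, a thyroid hormone transporter gene, had 39.4, 52.8 and 34.2 CPM in WT and 48.3, 52.8 and 38.2 CPM in K146Q mice. Its 3 high libraries were those rich in choroid plexus markers, and the part of that tissue in the values was not tested. Dio1 and Dio3, the other deiodinases, were under the filter, with at most 12 and 5 reads in a library.

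Crym, which encodes a T3-binding protein of the cytosol and also marks tanycytes, had the widest fold change of this group after Ttr. Its values were 2.92, 1.56 and 1.62 CPM in WT and 1.93, 5.85 and 6.99 CPM in K146Q mice. Mice 62 and 83 were high and mouse 60 lay within the WT range. These 2 libraries were also the ones with raised cortex or striatum markers, whose part in the result was not tested. Its log2 fold change was 0.98 (95% interval 0.15 to 1.82, limma adjusted p = 0.998). With each mouse left out it ran from 0.67 to 1.49, the highest being without mouse 60. Of 10 transport and metabolism genes tested (of 12 listed) only Crym had an unadjusted p under 0.05, beside 4.09% of all genes. The median of the 10 was 0.08.

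Target genes of thyroid hormone in brain did not pass the test. Klf9, a transcription factor gene induced by T3, had 98.0, 106.2 and 106.1 CPM in WT and 103.8, 117.7 and 100.3 CPM in K146Q mice. Hr, which encodes the corepressor hairless, had 55.2, 62.8 and 69.2 CPM in WT and 54.3, 62.9 and 58.9 CPM in K146Q mice. In both, the groups overlapped. Nrgn, which encodes the calmodulin-binding protein neurogranin of forebrain neurons, was the only 1 of 11 response genes with an unadjusted p under 0.05, beside 4.09% of all genes. It had 120.2, 81.3 and 91.3 CPM in WT and 122.2, 178.0 and 114.7 CPM in K146Q mice, with the maximum in mouse 62, the library rich in cortex markers. The log2 fold change was 0.49 (95% interval 0.12 to 0.86, limma adjusted p = 0.998) and 0.30 without mouse 62. The median of the list was 0.02.

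**Figure D3:**
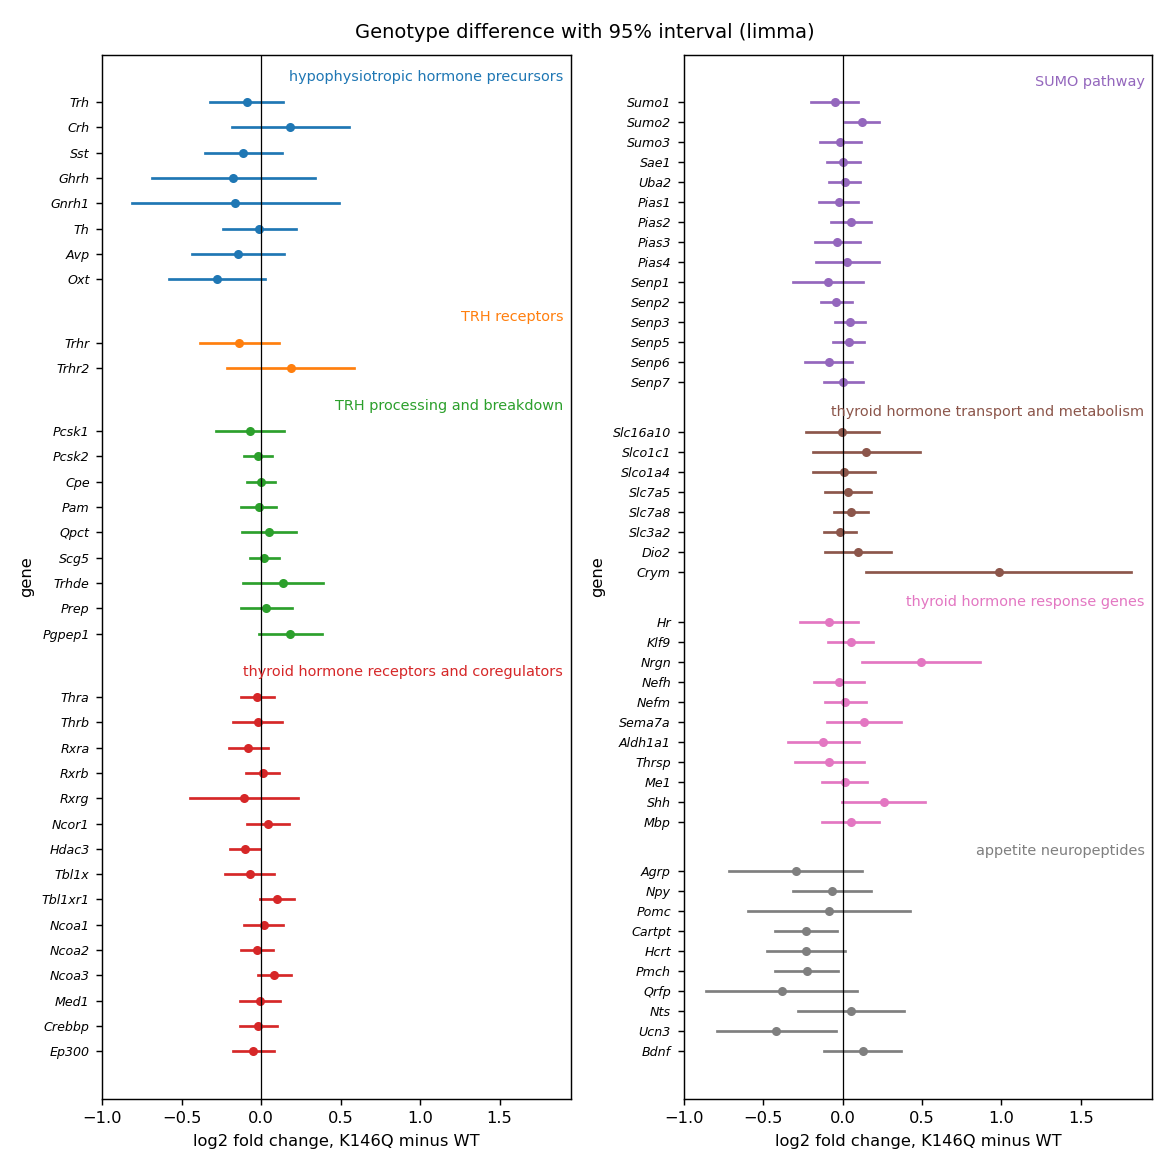
Log2 fold change, K146Q minus WT, of tested genes of 8 gene lists in the hypothalamus, without Ttr and a few genes not reported here (points; lines are 95% intervals from limma; the vertical line marks no difference). Most intervals include 0, and those of Hdac3, Sumo2, Crym, Nrgn, Cartpt, Pmch and Ucn3 do not, while no gene passed an adjusted p of 0.05.

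Of 10 genes of the appetite neuropeptide list tested (of 12 listed), none passed the adjusted threshold, and 3 had an unadjusted p under 0.05, all with lower K146Q values, beside 1.7% of all genes. Pmch, the precursor of melanin-concentrating hormone in the lateral hypothalamus, had 200.5, 229.8 and 253.7 CPM in WT and 199.5, 173.3 and 211.0 CPM in K146Q mice. The groups overlapped and the log2 fold change was -0.23 (95% interval -0.42 to -0.03, limma adjusted p = 0.998), or -0.15 without WT mouse 43 and also without K146Q mouse 62. Cartpt, the precursor of the satiety peptide CART, had 41.8, 46.2 and 43.8 CPM in WT and 42.98, 36.5 and 33.1 CPM in K146Q mice, overlapping through mouse 60, with a log2 fold change of -0.23 (95% interval -0.43 to -0.04) that was -0.15 without mouse 83. Ucn3, the precursor of urocortin 3, had 1.67, 2.14 and 1.91 CPM in WT and 1.21, 1.201 and 1.51 CPM in K146Q mice from 20 to 37 reads per library, with no overlap and a log2 fold change of -0.42 (95% interval -0.79 to -0.04).

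Hcrt, the orexin precursor and another lateral hypothalamic gene, had 68.0, 67.4 and 84.7 CPM in WT and 62.2, 53.7 and 71.9 CPM in K146Q mice, overlapping, with a log2 fold change of -0.23 (95% interval -0.47 to 0.02), which was -0.12 without WT mouse 43 or K146Q mouse 62. Agrp, Npy and Pomc, the main peptide genes of the arcuate nucleus, overlapped too: Npy had 8.09 to 10.1 CPM in WT and 8.01 to 9.18 CPM in K146Q mice, and Pomc 19.1 to 23.3 and 13.3 to 30.7 CPM. The median of the 10 tested genes was -0.23, with 8 below 0, and it was -0.13 without WT mouse 43 and -0.14 without K146Q mouse 62. Transcription factors that mark hypothalamic nuclei (22 genes) also had a median below 0, at -0.07 with 15 of 22 below and none at an unadjusted p under 0.05. Whether the dissected share of the nuclei bears on the peptide values was not tested.

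Of 19 other neuropeptide genes tested, 1 had an unadjusted p under 0.05, beside 4.09% of all genes. This was Npb, the precursor of neuropeptide B, higher in K146Q mice on 11 to 22 reads per library against 6 to 9 in WT mice. The median of the 19 was -0.05. Of 16 leptin, melanocortin and other appetite receptor genes and their signalling genes 1 had an unadjusted p under 0.05. This 1 was lower in K146Q, beside 1.7% of all genes lower at that threshold. Ghsr, the ghrelin receptor, had 5.79, 6.30 and 5.34 CPM in WT and 4.71, 4.203 and 4.68 CPM in K146Q mice. The groups did not overlap, and the log2 fold change was -0.33 (95% interval -0.59 to -0.06, limma adjusted p = 0.998). Insr, the insulin receptor and the most abundant of these genes, had 70.4 to 77.7 CPM in WT and 72.1 to 77.0 CPM in K146Q mice. The list had a median of -0.04.

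Hdc, the histamine-synthesising enzyme of tuberomammillary neurons, was the only 1 of 10 tested transmitter markers with an unadjusted p under 0.05. It had 23.6, 23.8 and 29.1 CPM in WT and 20.1, 18.4 and 22.1 CPM in K146Q mice. Every K146Q library lay below every WT library, and the log2 fold change was -0.33 (95% interval -0.55 to -0.11, limma adjusted p = 0.998). Hdc is also on the list of ependymal markers, of which it was again the only 1 of 8 with an unadjusted p under 0.05, while all 8 lay below 0 (median -0.16). Among all genes 1.7% were lower at an unadjusted p under 0.05 and 7975 of 15761 lay below 0. The median of the transmitter markers was 0.07, and Gad2, the most abundant of them, had 334.5 to 369.6 CPM in WT and 346.0 to 409.6 CPM in K146Q mice.

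No glial marker passed the adjusted threshold, and some had an unadjusted p under 0.05, counted by list below beside the shares of all genes. Gfap, the astrocyte filament gene, had 150.7, 137.0 and 147.8 CPM in WT and 197.5, 179.5 and 139.7 CPM in K146Q mice, and the estimated log2 fold change was 0.23 (95% interval 0.002 to 0.46), or 0.13 without mouse 60. Vim, a filament gene of tanycytes and other cells, had 35.0, 33.1 and 37.9 CPM in WT and 49.1, 44.6 and 37.5 CPM in K146Q mice, and the estimated log2 fold change was 0.30 (95% interval 0.09 to 0.50). In both genes mice 60 and 62 were above all WT libraries and mouse 83 was not, and mice 60 and 62 are the K146Q libraries with choroid plexus RNA, while WT mouse 2, which also has it, had the lowest value of the 6. The part of that tissue in the values was not tested. Aldh1l1, an astrocyte enzyme gene, went the other way with 61.8, 66.9 and 77.1 CPM in WT and 60.9, 59.3 and 60.03 CPM in K146Q mice, without overlap and with a log2 fold change of -0.18 (95% interval -0.34 to -0.02), which was -0.10 without WT mouse 43.

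By list, beside 2.39% higher and 1.7% lower among all genes, the counts at an unadjusted p under 0.05 were 1 higher and 1 lower of 9 astrocyte markers (median -0.02), 2 higher of 10 tanycyte markers (median 0.04; Crym and Vim), 1 higher and 1 lower of 7 oligodendrocyte precursor markers (median -0.04; Cspg4 and C1ql1) and 1 higher of 8 mural markers (median 0.06; Rgs5). There were none among 10 oligodendrocyte (median 0.007), 9 microglia (median 0.04), 9 endothelial (median 0.009) and 8 meningeal markers (median 0.18). Among markers of neighbouring tissue there were none of 10 for choroid plexus (median 0.73), none of 8 for thalamus (median 0.07), none of 5 for blood (median 0.23), 1 of 8 for striatum (median 0.31; Ppp1r1b), 2 of 8 for cortex and hippocampus (median 0.33; Neurod2 and Camk2a) and 1 of 7 tested for pituitary (median 0.34; Prl), each of them higher in K146Q. Prl, a pituitary hormone gene, had 12.9, 14.1 and 10.3 CPM in WT and 17.4, 14.5 and 15.7 CPM in K146Q mice, a log2 fold change of 0.34 (95% interval 0.08 to 0.61), or 0.22 without WT mouse 43. The blood median was -0.25 without WT mouse 2 and 0.82 without WT mouse 43, the striatum median was -0.01 without K146Q mouse 83, the choroid plexus median ran from 0.26 without WT mouse 1 to 1.65 without WT mouse 2, and the meningeal median was 0.04 without K146Q mouse 60. All these estimates had a limma adjusted p of 0.998.

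Immediate-early genes, which neurons switch on within minutes of activity, split the K146Q mice. Fos had 29.1, 26.6 and 43.7 CPM in WT and 8.99, 6.004 and 44.2 CPM in K146Q mice. Mice 60 and 62 were far below every other library and mouse 83 was the highest of all 6. The log2 fold change was -1.23 (95% interval -2.47 to 0.01, limma adjusted p = 0.998), and without mouse 83 it was -2.06 (adjusted p = 0.0137), while without mouse 62 it was -0.67 (adjusted p = 0.9997). Egr1, another such factor and the most abundant on this list, had 73.7 to 93.0 CPM in WT and 37.1, 38.2 and 113.1 CPM in K146Q mice. The summed level of the 13 listed genes was 277.3, 244.7 and 342.1 CPM in WT and 152.7, 149.9 and 384.0 CPM in K146Q mice. Of the 12 tested, 11 lay below 0 (median -0.42, or -0.23 without mouse 62 and -0.78 without mouse 83) and none had an unadjusted p under 0.05, beside 7975 of 15761 and 4.09% among all genes. Mice 60 and 62 are also the K146Q libraries with choroid plexus RNA, whose part in these values was not tested, while WT mouse 2, which also has it, had the lowest WT values of Fos (26.6 CPM) and Egr1 (73.7 CPM), both well above those of mice 60 and 62.

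Among clock genes Dbp, an output gene of the circadian clock, divided the same way. It had 100.8, 100.6 and 104.6 CPM in WT and 133.5, 131.1 and 100.4 CPM in K146Q mice. Mice 60 and 62 were high and mouse 83 was at the WT level. The log2 fold change was 0.24 (95% interval 0.04 to 0.45, limma adjusted p = 0.998). It ran from 0.17 to 0.37 with each mouse left out, the highest being without mouse 83 (limma adjusted p = 0.0399). Bhlhe41, a clock repressor gene, had 76.6 to 79.1 CPM in WT and 89.8, 87.4 and 78.6 CPM in K146Q mice. Of 16 clock genes 2 had an unadjusted p under 0.05, both higher, beside 2.39% of all genes, 13 lay above 0, as did 7786 of all 15761 genes, and the median was 0.04. The hour of dissection is not given in the sources used here. Heat shock genes (7 tested) had none at an unadjusted p under 0.05 and a median of -0.04.

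The genes most distant between genotypes by the size of the test, among genes averaging 1 CPM or more without overlap, are given as a description, since the same contrast chose them. The highest-ranked of those higher in K146Q was Kcnh3, a voltage-gated potassium channel gene of forebrain neurons, with 5.31, 4.28 and 3.95 CPM in WT and 7.73, 11.4 and 9.90 CPM in K146Q mice and an estimated log2 fold change of 1.02 (95% interval 0.67 to 1.36, limma adjusted p = 0.438, DESeq2 adjusted p = 3.50e-04). Fam212b (log2 fold change 0.65), the sulfotransferase gene Chst15 (0.62), Icam5, an adhesion molecule of telencephalic neurons (0.63), the muscarinic receptor gene Chrm1 (0.68) and Igfbp4, which binds insulin-like growth factors (0.56), followed, then Sowaha, Rin1, AA987161 and Pcdhgc5. In 9 of these 10 genes the maximum was in K146Q mouse 62, the library with the most cortex and hippocampus RNA. Without that mouse the log2 fold change was 0.89 for Kcnh3, 0.47 for Icam5 and 0.47 for Chrm1.

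Of the 10 ranked lowest in K146Q mice by the same rule, 4 lie together among similar copies on chromosome 12. Srp54a and Srp54b encode a subunit of the signal recognition particle, which guides new secretory proteins to the endoplasmic reticulum, and with Fam177a and 1700047I17Rik2 they lie together on chromosome 12, plus strand, from 55080262 (the start of Srp54a) to 55217168 (the end of 1700047I17Rik2). Srp54b had 69.8, 62.9 and 70.8 CPM in WT and 46.4, 48.1 and 35.4 CPM in K146Q mice, a log2 fold change of -0.65 (95% interval -0.88 to -0.42, limma adjusted p = 0.438, DESeq2 adjusted p = 2.03e-06). Srp54a had 43.6, 45.9 and 46.6 CPM in WT and 35.7, 34.7 and 34.1 CPM in K146Q mice, a log2 fold change of -0.38. Fam177a had 34.4, 33.7 and 32.7 CPM in WT and 25.5, 23.3 and 17.9 CPM in K146Q mice (log2 fold change -0.60), and 1700047I17Rik2 had almost the same value in every library, 34.4, 33.6 and 32.7 CPM against 25.5, 23.3 and 17.8 CPM. All 4 were lower in each K146Q library than in any WT library, and how reads were shared between such similar copies is uncertain, so they are not 4 separate observations. Ppp2r3c (20.4 to 22.6 CPM in WT, 20.6 to 22.6 CPM in K146Q mice) and Psma6 (52.1 to 53.6 and 53.2 to 55.3 CPM), genes nearby, overlapped between genotypes. In thyroid, Ppp2r3c too was below the WT values in every K146Q library, with 10.96 to 13.5 against 14.3 to 16.8 CPM.

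The other 6 of the 10 lowest were A330076C08Rik, with 2.74, 3.70 and 3.95 CPM in WT and 0.604, 1.301 and 1.29 CPM in K146Q mice (log2 fold change -1.36, limma adjusted p = 0.444, DESeq2 adjusted p = 0.00393), Plac9b (-1.17), the globin-like gene Adgb (-0.68), the adaptor gene Bcar3 (-0.45), the acyl-CoA thioesterase gene Acot11 (-0.29) and the read-through gene Jmjd7-pla2g4b. Bcar3 was tight within each genotype, with 19.5, 18.8 and 17.2 CPM in WT and 13.4, 13.5 and 13.3 CPM in K146Q mice, and did not overlap. Acot11 had 71.2, 73.5 and 78.2 CPM in WT and 61.9, 62.6 and 57.6 CPM in K146Q mice, also without overlap. Plac9b and its copy Plac9a, on chromosome 14 as Thrb is but several megabases away, were both lower in every K146Q library.

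The pituitary and thyroid libraries were not used to choose these genes, and several of the lower genes were called lower in them as well. Of the 10 lower genes, 9 could be tested in each, and 7 were called lower in pituitary (background 3.5%) and 5 lower in thyroid (background 18.1%) at a limma adjusted p under 0.05, with none called higher. Of the 10 higher genes, 0 were called in pituitary (background 6.36% higher), and 2 were called higher and 4 lower in thyroid (background 19.7% higher). Srp54b had 114.6, 109.6 and 128.3 CPM in WT and 82.7, 75.1 and 56.8 CPM in K146Q pituitary (log2 fold change -0.73, limma adjusted p = 0.00766), and 136.0, 136.6 and 110.3 CPM against 55.1, 53.9 and 49.5 CPM in thyroid (-1.26, limma adjusted p = 1.61e-04). In all 3 tissues each K146Q library was below each WT library, and K146Q mouse 83 had the lowest value. Bcar3 (-0.93, limma adjusted p = 0.0056) and Acot11 (-0.82, limma adjusted p = 9.26e-04) were also lower in pituitary, and in thyroid both overlapped. The same mouse numbers recur in the 3 tissues, so these are not known to be separate animals, and 4 of the 7 and of the 5 are the chromosome 12 copies.

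**Figure D4:**
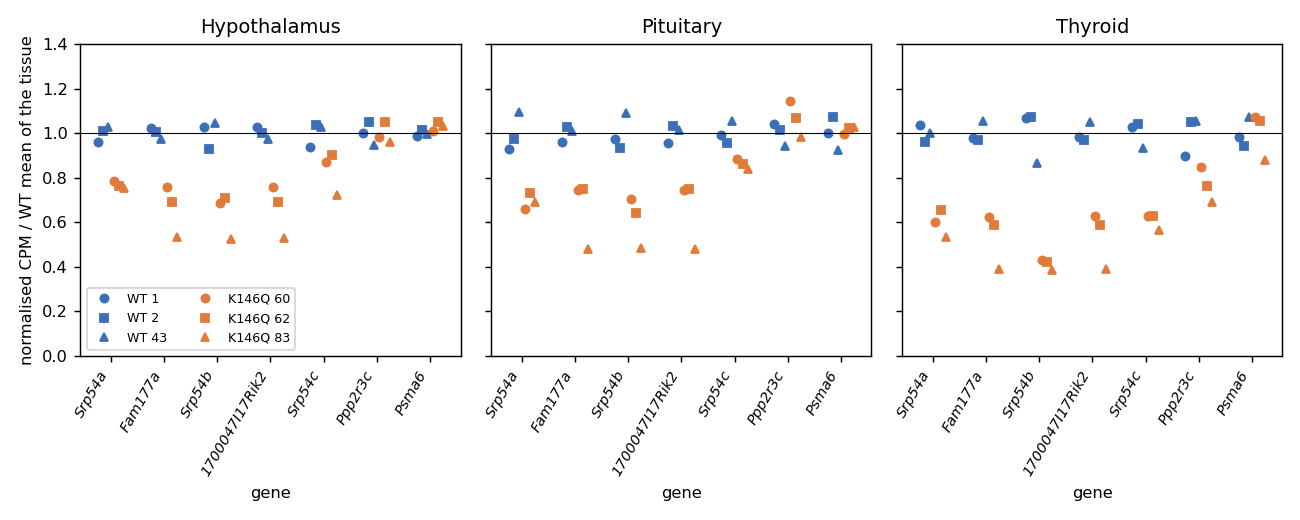
Normalised CPM divided by the WT mean of the same tissue (1 is the horizontal line) for 5 genes of the chromosome 12 copies and 2 nearby genes, Ppp2r3c and Psma6, in hypothalamus, pituitary and thyroid (blue, WT; orange, K146Q; the shape gives the mouse). In each tissue the orange points of the 5 copies lie below the blue ones, and those of Psma6 overlap with them.

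For genes of the axis the genotype difference in hypothalamus was set against that in the other tissues in 1 model over 12 libraries (limma, difference of genotype effects). Against pituitary 997 of 16548 genes differed at an adjusted p under 0.05 (6.02%), 308 with a more positive and 689 with a more negative effect in hypothalamus. That count was 466 without K146Q mouse 60 and 495 without K146Q mouse 62. Against thyroid 5105 of 16801 genes differed (30.4%), 2511 more positive and 2594 more negative, and 3347 without K146Q mouse 62. With library totals taken without the 10 highest genes the split was 478 to 571 against pituitary and 3193 to 2148 against thyroid. Thrb, level in hypothalamus, had 103.7, 97.7 and 106.2 CPM in WT and 158.7, 142.4 and 183.9 CPM in K146Q pituitary, and 14.9, 16.3 and 15.6 CPM against 7.19, 5.64 and 4.98 CPM in thyroid. The effect in hypothalamus was lower than that in pituitary by a log2 difference of -0.67 (limma adjusted p = 0.00419) and higher than that in thyroid by 1.31 (limma adjusted p = 1.14e-04).

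Dio2 differed in the same way, with 155.7, 87.6 and 102.6 CPM in WT and 944.5, 876.8 and 703.8 CPM in K146Q pituitary against the near-level hypothalamus (log2 difference -2.80, limma adjusted p = 1.35e-05). Trhr had 13.6, 5.72 and 8.20 CPM in WT and 71.1, 59.9 and 53.2 CPM in K146Q pituitary (log2 difference -2.89, limma adjusted p = 8.26e-05). Pcsk2 had 139.4, 141.8 and 120.3 CPM in WT and 13.6, 8.23 and 8.79 CPM in K146Q thyroid (log2 difference 3.66, limma adjusted p = 2.92e-07). In each of these the genotypes did not overlap in the other tissue and overlapped in hypothalamus. Hr and Klf9, the response genes, were lower in K146Q thyroid, with log2 differences of 0.85 and 0.88 between hypothalamus and thyroid (limma adjusted p = 0.00195 and 6.19e-05). The study describes thyroid hyperplasia and more TSH-positive cells in the pituitary of K146Q mice. The part of cell composition in the differences between tissues was not tested.

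**Figure D5:**
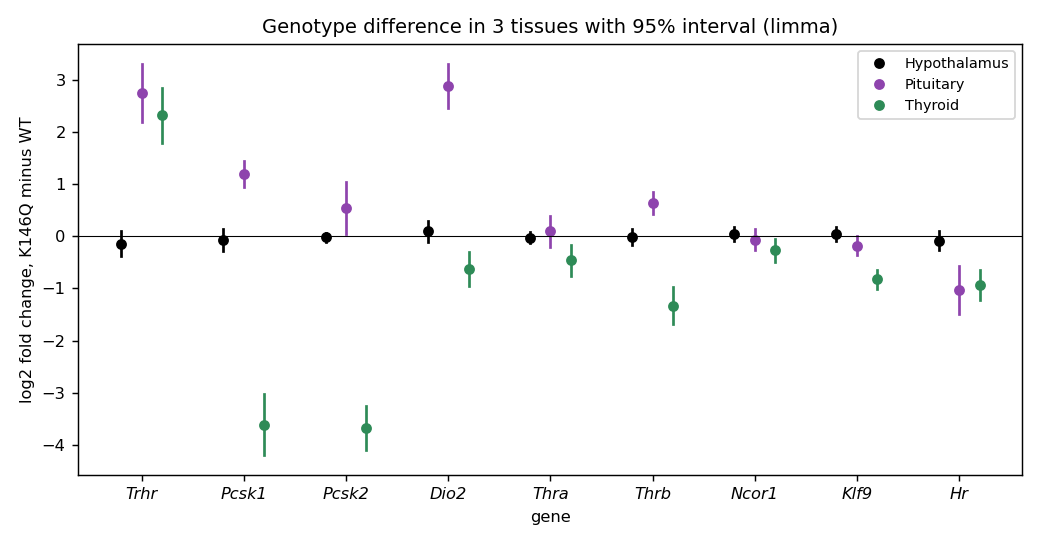
Log2 fold change, K146Q minus WT, of 9 genes of the thyroid axis in hypothalamus (black), pituitary (purple) and thyroid (green), each fitted within its tissue; lines are 95% intervals from limma and the horizontal line marks no difference. The black points lie between -0.14 and 0.10 for all 9 genes, while Dio2 reached 2.90 in pituitary and Pcsk2 -3.68 in thyroid.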

How the data were processed

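RNA-Seq libraries were grouped by the tissue, genotype and mouse number in their labels, 3 WT and 3 K146Q per tissue; replicates came from separate mice. For each tissue the authors deposited a normalized signal per gene and library (CPM of a library size after a normalization factor), an average log2 value, and their own fold changes, likelihood ratios, p-values and FDR, which hold their own comparison and were not used. The submitters' processing notes name mm10, bcl2fastq 2.17, Bowtie2 2.1.0 and RSEM 1.2.15; the annotation and the normalization software are not given in the sources used here. The average log2 column was the same in all 3 tables for 24027 symbols, so the tissues were compared on the deposited scale.

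All of the 144324 hypothalamus values (100%) were whole multiples of 1 read (tolerance 0.01), so reads could be recovered. Limma 3.58.1 (R 4.3.3, mean-variance trend) was run on log2(value + 0.5) for genes with at least 0.5 in at least 3 libraries, calling genes at a Benjamini-Hochberg adjusted p under 0.05. Alternatives were edgeR 4.0.16 and DESeq2 1.42.0 on the recovered reads, other pseudocounts (0.1 and 1), filters and scalings, no trend, array weights, each mouse left out, mouse number as a block between tissues, and log2 of Ttr as covariate, the last chosen after seeing the data. In a simulation from the mean levels and library sizes of this comparison, limma recovered 72.5% of 200 changes of log2 0.5 among 15741 genes. It recovered 99.5% of changes of log2 1 among 15738. Only genes above a minimum mean were changed, and all genes were given the same dispersion. These shares therefore do not cover low genes or the tissue differences between the real libraries. Hypothalamus replicates differed by more than sampling noise (chi-square per degree of freedom 5.88 to 10.9). Positions and exon lengths are from GENCODE M21 (GRCm38).

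The genes and lists were chosen with earlier results of these data known. Named are all genes of the axis, SUMO and appetite peptide lists; of other lists the most abundant member and those with the smallest or an unadjusted p under 0.05; the 10 highest-ranked genes in each direction with a mean of at least 1 and no overlap; genes called by any tool; and the 10 most variable genes within genotypes with a mean of at least 5. The fits within pituitary and thyroid, and the neighbouring copies, were added after the hypothalamus values were seen. A few genes that the rule would name are not reported here, though the counts and medians of their lists include them. Of 13 mitochondrially encoded genes listed, 0 were in the table.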

Additional observations from a re-analysis of the deposited data

Results flagged for a closer look

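The genotype effect in hypothalamus differed from that in another tissue for several genes of the axis, by the test of the difference itself (limma, 12 libraries, adjusted p under 0.05). Against pituitary the log2 difference was -2.80 for Dio2, -2.89 for Trhr, -1.27 for Pcsk1, -0.67 for Thrb and 0.94 for Hr. Pcsk1 had 211.5, 225.4 and 215.3 CPM in WT and 611.4, 467.6 and 438.1 CPM in K146Q pituitary, against 29.7 to 34.5 and 26.6 to 34.9 CPM in hypothalamus. Hr was at the edge of the threshold against pituitary (adjusted p = 0.0463) and lost its call without the filter, without the trend and without any of 5 of the 6 mice, with adjusted p up to 0.211. Against thyroid the log2 difference was 3.66 for Pcsk2, 0.88 for Klf9, 1.31 for Thrb and 0.85 for Hr, and these stayed past the threshold under every alternative run. Dio2 (0.73), Pcsk1 (3.54) and Trhr (-2.46) also differed against thyroid in the main fit. For Dio2 and Pcsk1 the sign was opposite to that against pituitary. The part of cell composition of pituitary and thyroid in these differences was not tested.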

How the results depend on the processing

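The count of genes called in hypothalamus was 0 under each other alternative run and 9 with DESeq2, 1 with log2 of Ttr as covariate (Gm14308, lower) and 0 to 6 with each mouse left out; the cause was not tested. The count at an unadjusted p under 0.05 was 340 with DESeq2 and 348 to 1081 with each mouse left out. Leaving out mice gave 466 to 870 genes for the difference from pituitary and 3347 to 4676 for that from thyroid, all with fewer samples. The log2 fold change of Trh ranged from -0.167 to 0.0102 with each mouse left out, that of Thrb from -0.0802 to 0.0171 and that of Thra from -0.0552 to 0.0257; these 3 of the 39 single genes recomputed turned sign, and the other 36 did not under any of the 18 alternatives. Of those, 15 moved by over 1.5 times with a mouse left out. Of 31 list medians, 18 turned sign with a mouse left out and the other 13 moved by over 1.5 times. Totals without the 10 highest genes moved the median difference from thyroid of all genes from 0.02 to 0.10, and the share of calls more positive in hypothalamus from 30.9% to 45.6% against pituitary and from 49.2% to 59.8% against thyroid. For the pairing of tissues by mouse number, correlations of same-numbered libraries ran from -0.0283 to 0.109. The highest was that of K146Q mouse 83 with thyroid, and the next was 0.0969. With mouse number as a block the calls were 898 (292 more positive) against pituitary and 4849 (2407 more positive) against thyroid. Array weights ran from 0.771 to 1.34. With 3 mice against 3, the exact permutation test cannot go below 0.1, and differences of log2 0.5 could be missed.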

Other observations

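Among the most variable genes within genotypes with a mean of at least 5 CPM were Ttr, Slc4a5, F5, Mfrp and Kl, which all followed the 3 libraries with choroid plexus RNA, and Eno1b, Hba-a2, Gdf1 and Tmem254b, which did not. Kl, the Klotho gene of choroid plexus, had 8.11, 56.2 and 11.1 CPM in WT and 45.6, 56.3 and 7.05 CPM in K146Q mice. Eno1b had 2.63, 96.2 and 81.3 CPM in WT and 122.1, 84.4 and 7.26 CPM in K146Q mice. These values differ by library within both genotypes, and the symbol belongs to a family with similar copies. Tmem254b had 16.4, 17.6 and 14.6 CPM in WT and 12.1, 8.05 and 0.377 CPM in K146Q hypothalamus, while in pituitary it had 6.14, 0 and 0.171 against 14.4, 14.04 and 1.81 CPM, and its copy Tmem254c went the other way there, with 18.6, 25.7 and 24.0 against 1.81, 2.25 and 11.5 CPM.

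Ribosomal RNA precursor (Rn45s), the most abundant entry of the table, ran from 3364 CPM in K146Q mouse 60 to 14793 CPM in WT mouse 1, and overlapped between genotypes.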
